A study of Zea mays with 74 samples.

Results

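The 10 genes described here are the maize genes at which an exon lost the most CG methylation in modern maize inbred lines relative to teosinte, the wild ancestor of maize. They were chosen by the population means that the study lists for its exonic differentially methylated regions (DMRs), as the genes with the most negative difference of modern maize minus teosinte. The loss itself is therefore the reason for their choice and is not a finding, and the population means that chose them are not reported here. Each gene carries 1 such region. These 10 regions are among 227 exon-listed and 1545 deposited CG DMRs between teosinte and modern maize, out of 6389 deposited DMRs of all contexts and comparisons. Ranking the list again gave the same 10 genes, which checks the rule and is not a result. The genes are known here by identifiers alone, so no function is given for any of them.

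The populations were 14 modern maize inbred lines, 17 open-pollinated Mexican landraces and 20 teosinte plants (Zea mays ssp. parviglumis). Landraces are farmer varieties that stand between the wild and the inbred populations. The landrace and teosinte plants were grown in a greenhouse, and the third leaf of seedlings gave DNA for whole-genome bisulfite sequencing (WGBS) and whole-genome sequencing (WGS). The modern maize data were published earlier, and their tissue and stage are not given in the sources used here. For any comparison that includes these lines, population therefore cannot be told apart from data source, possibly with another laboratory, and growth. The landraces were collected across Mexico, whereas the teosinte plants came from 1 natural population, so they stand for that population.

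Plant genomes carry methyl groups on cytosines of 3 kinds of site, named CG, CHG and CHH by the bases that follow the cytosine, with H for any base except G. CG methylation is copied after DNA replication by a maintenance methyltransferase (MET1 in Arabidopsis), CHG methylation is kept by chromomethylases in a loop with histone methylation, and CHH methylation must be set anew by small RNAs or chromomethylases. Methylation in CG alone is typical of the bodies of active plant genes, while CG and CHG methylation on the same stretch is typical of transposons and silenced sequence. A CG DMR alone does not tell these forms apart, so the DMRs of the other contexts at the same exon are described beside it.

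The table lists DMRs by position, context and comparison with no level for any plant, so neither a spread between plants nor a p-value can be given, and all counts below are descriptions. Contexts were read from the same libraries, and the comparisons share plants: the 2 with teosinte use the same teosinte plants, and the 2 with modern maize use the same inbred lines. Directions of the CHG and CHH DMRs, and of all DMRs that involve landraces, were not analysed here. The 10 exonic CG DMRs are all losses in modern maize, but the 217 other exon-listed and all 1545 CG DMRs were not split by direction. The paper reports both losses and gains among its CG DMRs of this comparison, in exons too. Every share set beside the 10 therefore comes from a mix of losses and gains, and shares among losses alone were not counted. Coordinates refer to the B73 AGPv4 assembly and are given as deposited.

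Of the 10 exonic CG DMRs, 6 lay near the 5′ end of the gene, in the first 25% of its span, 3 near the 3′ end, in the last 25%, and 1 in the middle. The first group held Zm00001d021269 (chromosome 7, 147358396 to 147358678), Zm00001d006197 (chromosome 2, 201333265 to 201334160), Zm00001d045221 (chromosome 9, 16491505 to 16491993), Zm00001d010120 (chromosome 8, 100003231 to 100003382), Zm00001d030270 (chromosome 1, 118122360 to 118122518) and Zm00001d020204 (chromosome 7, 99031135 to 99031627). Near the 3′ end were the DMRs of Zm00001d045054 (chromosome 9, 11191629 to 11192274), Zm00001d046933 (chromosome 9, 111694961 to 111695982) and Zm00001d015054 (chromosome 5, 73450609 to 73451037). The DMR of Zm00001d046747 (chromosome 9, 104245509 to 104245786) was in the middle of its gene. The exonic placement is the study's. Its binned gene models put the DMRs of Zm00001d021269 and Zm00001d010120 upstream of the gene and do not hold those of Zm00001d006197 and Zm00001d020204, so the placement of these 4 depends on the gene model. Which exon or untranslated region each DMR covers was not analysed here. The place in the gene was not counted for the other exon-listed DMRs, so the 6 near the 5′ end have no background share. The paper reports that its DMRs along gene models were most abundant in 5′ untranslated regions. Nothing particular to these genes is therefore read from their placement.

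The genes were spread over 6 chromosomes. Chromosome 9 held 4 of the 10 DMRs (40%), and the same chromosome held 116 of all 1545 CG DMRs (7.51%). These are the DMRs of Zm00001d045054, Zm00001d045221, Zm00001d046747 and Zm00001d046933, and they lie megabases apart from each other.

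The exonic DMRs of the 10 genes ran from 151 bp at Zm00001d010120 and 158 bp at Zm00001d030270 to 895 bp at Zm00001d006197 and 1021 bp at Zm00001d046933. Their median was 458 bp (SD 296 bp, n = 10), against 315 bp over the 217 other exon-listed CG DMRs and 333 bp over all 1545. The ranges overlap broadly, since the other exon-listed DMRs reached from 58 to 1796 bp. Only the DMRs of Zm00001d046933 and Zm00001d006197 ranked within the longest 100 of the 1545 (58 and 100), and that of Zm00001d010120 ranked 1363.

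**Figure D1:**
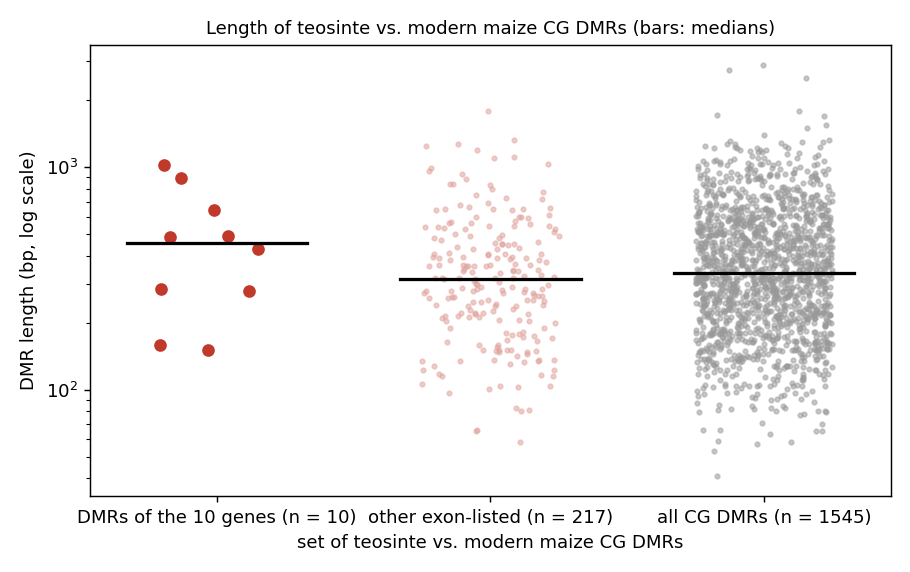
Length of each teosinte vs. modern maize CG DMR (bp, log scale) for the 10 genes, the 217 other exon-listed DMRs and all 1545 DMRs; each point is 1 DMR, bars are medians (458, 315 and 333 bp) and sideways position carries no value. The 10 DMRs lie between 151 and 1021 bp, inside the range of the other sets.

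CHG methylation differed between modern maize and teosinte at nearly all of the same exons. A CHG DMR of the same comparison lay on the exonic CG DMR at 9 of the 10 genes (90%), against 42 of the 217 other exon-listed DMRs (19.4%) and 769 of all 1545 (49.8%). The genes were chosen on CG methylation in the same comparison and the same reads, and the other sets mix losses with gains. Nothing further is therefore read from this count. The one gene without it was Zm00001d015054. The CHG DMR covered the whole CG DMR at Zm00001d021269, Zm00001d006197, Zm00001d030270, Zm00001d020204 and Zm00001d046747. It covered 95.9% of the CG DMR at Zm00001d046933, 91.2% at Zm00001d045054, 88.1% at Zm00001d010120 and 79.5% at Zm00001d045221. The median coverage was 100% (n = 9), close to the 97.0% of the 42 other exon-listed DMRs with such an overlap and the 97.7% of all 769. Where a CG DMR had a CHG DMR on it, near-complete cover was thus the usual case in every set.

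At 6 of these 9 genes (66.7%) the CHG DMR was longer than the CG DMR, near the share in the other sets, which was 29 of 42 other exon-listed DMRs (69%) and 541 of all 769 (70.4%). The median length of the 9 CHG DMRs was 791 bp. The longest was 3045 bp at Zm00001d006197 (201331326 to 201334371), where the CG DMR of 895 bp took up the part toward the 5′ end. At Zm00001d021269 a CHG DMR of 2209 bp (147357808 to 147360017) ran over the exonic CG DMR of 282 bp and reached a neighbouring CG DMR of 606 bp. At Zm00001d030270 a CHG DMR of 1579 bp (118121954 to 118123533) likewise covered the exonic CG DMR of 158 bp and reached into a CG DMR of 519 bp. The CHG DMR of 388 bp at Zm00001d045221 was shorter than its CG DMR of 488 bp, and at Zm00001d045054 and Zm00001d046933 the CHG DMRs of 588 and 1009 bp were shorter than CG DMRs of 645 and 1021 bp.

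**Figure D2:**
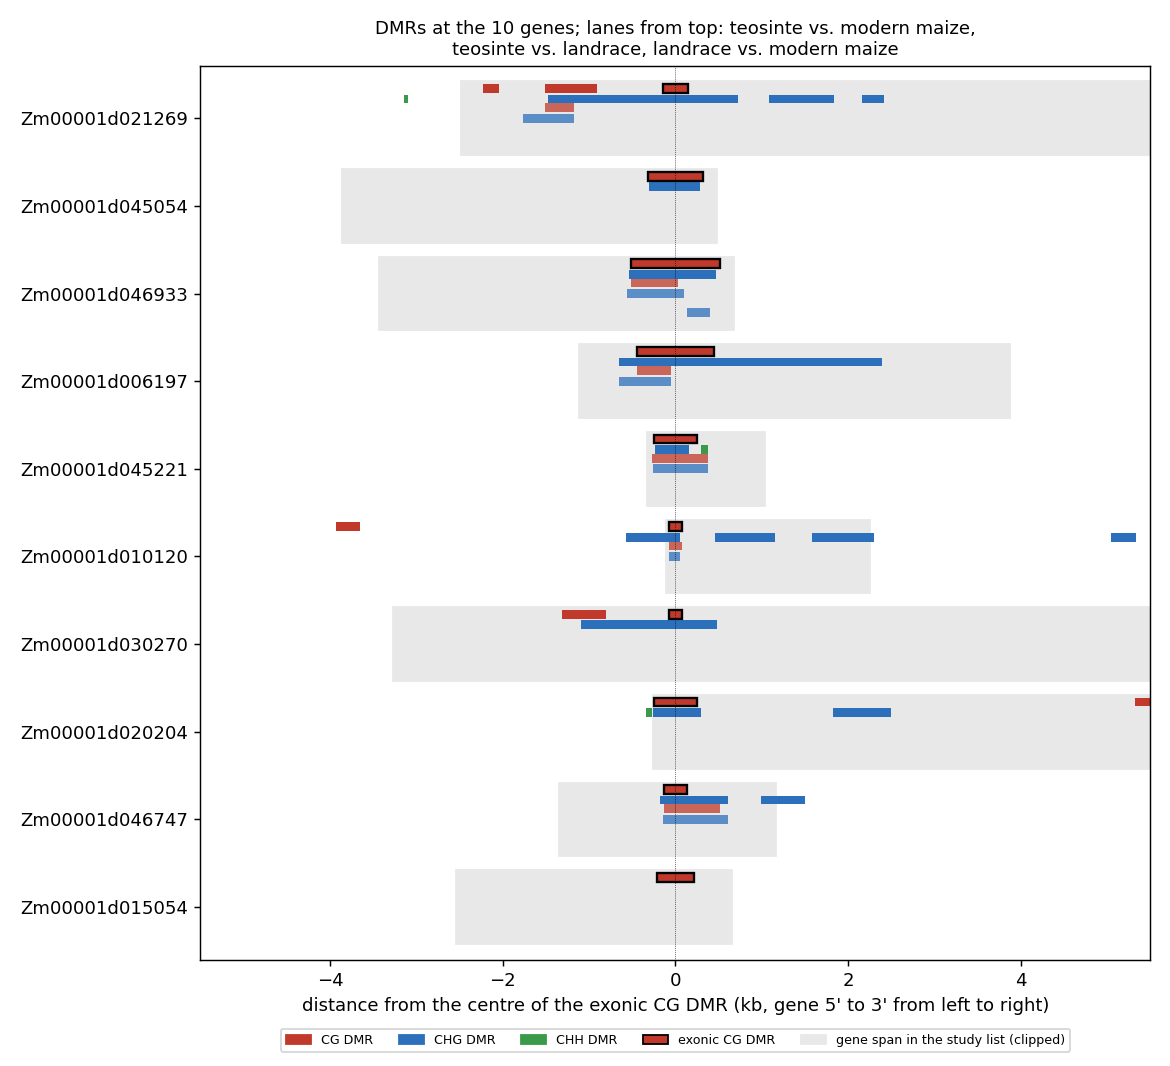
DMRs around the exonic CG DMR of each gene, as distance in kb from its centre with the gene running 5′ to 3′ from left to right; the black outline marks the exonic CG DMR, red, blue and green are CG, CHG and CHH DMRs, and the lanes of a gene hold, from the top, the comparisons of teosinte with modern maize, of teosinte with landraces and of landraces with modern maize. Zm00001d015054 has no other DMR, and the CHG DMR of Zm00001d006197, 3045 bp long, is the longest drawn.

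No CHH DMR between teosinte and modern maize lay on any of the 10 DMRs, against 1 of the 217 other exon-listed DMRs (0.461%) and 11 of all 1545 (0.712%), so a count of 0 among 10 is near the background. Within 5 kb of the exonic DMR, a CHH DMR between teosinte and modern maize lay at 3 of the 10 (30%), against 10 of the 217 other exon-listed DMRs (4.61%) and 136 of all 1545 (8.8%). The comparison is the one that chose the genes, so nothing further is read from this count. At Zm00001d020204 one of 66 bp lay 30 bp upstream of the exonic DMR and just outside the gene span. At Zm00001d045221 one of 88 bp (16491368 to 16491456) lay 49 bp to the 3′ side, inside the gene and on the CG and CHG DMRs between teosinte and landraces. At Zm00001d021269 one of 49 bp was 2957 bp away, upstream of the gene span. Between landraces and teosinte no CHH DMR lay on the 10 DMRs, against 1 of all 1545 (0.0647%).

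At 5 genes the landraces also differed from teosinte on the exonic DMR, and at each of them in both CG and CHG. CG DMRs between teosinte and landraces lay on 5 of the 10 DMRs (50%), against 28 of the 217 other exon-listed DMRs (12.9%) and 265 of all 1545 (17.2%). CHG DMRs of that comparison lay on the same 5 (50%), against 13 (5.99%) and 193 (12.5%). The 5 genes were Zm00001d046933, Zm00001d006197, Zm00001d045221, Zm00001d010120 and Zm00001d046747, and each of them had the CHG DMR between teosinte and modern maize as well. The 3 classes together lay on 5 of the 10 DMRs (50%), on 7 of the other exon-listed DMRs (3.23%) and on 118 of all 1545 (7.64%). These shares are not independent of the choice of genes, since the same teosinte plants enter both comparisons. Of the 265 CG DMRs in the whole table with a landrace CG DMR on them, 135 (50.9%) also had the landrace CHG DMR.

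Several landrace DMRs shared a boundary with the exonic DMR to the base. At Zm00001d010120 the CG DMR between teosinte and landraces had the same start and the same end as that between teosinte and modern maize (151 bp), and the landrace CHG DMR of 132 bp lay inside it. At Zm00001d046933 the landrace CG DMR (111695448 to 111695982, 534 bp) ended at the same base and covered 52.3% of the exonic DMR, with 60.1% covered in CHG. At Zm00001d006197 the landrace CG DMR (201333769 to 201334160, 391 bp) also ended at the same base and covered 43.7%, with 43.8% covered in CHG. The CHG DMRs of the 2 comparisons at Zm00001d006197 shared their end at 201334371. At Zm00001d046747 the landrace CG DMR (104245134 to 104245786, 652 bp) ended at the same base but was longer than the exonic DMR of 277 bp, and covered it whole in both contexts. At Zm00001d045221 the landrace CG DMR of 647 bp and CHG DMR of 637 bp ran past both ends of the exonic DMR of 488 bp. A start or end was shared at 4 of these 5 genes, and over the whole table at 121 of the 265 CG DMRs with a landrace CG DMR on them (45.7%).

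Modern maize and landraces differed at 1 of the 10 DMRs (10%), against 7 of the 217 other exon-listed DMRs (3.23%) and 95 of all 1545 (6.15%), a count too small to set apart from the background. The gene was Zm00001d046933, where a CHG DMR of 257 bp (111695076 to 111695333) covered 25.2% of the exonic DMR. It did not meet the landrace CG DMR or CHG DMR of the teosinte comparison in that gene, which began at 111695448 and 111695368, on the 5′ side. Along this one exonic DMR, the 5′ part therefore differed between landraces and teosinte in CG and CHG and a stretch of the 3′ part between modern maize and landraces in CHG, while the CHG DMR between modern maize and teosinte (111695003 to 111696012) ran over both. No CG DMR between landraces and modern maize lay in the span of any of the 10 genes. Only 171 such DMRs were deposited in all, and their share over other gene spans was not counted, so nothing is read from this absence.

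At the other 5 genes no landrace DMR lay on the exonic DMR. Zm00001d045054 had the CHG DMR as its only other DMR. Zm00001d030270 had a further CG DMR of 519 bp (118123239 to 118123758), 721 bp to the 5′ side. Zm00001d020204 had a further CHG DMR of 671 bp, 1576 bp to the 3′ side, and a CG DMR of 333 bp, 5069 bp to the 3′ side. Zm00001d021269 held the most DMRs, with 7 besides the exonic one. They were 2 further CG DMRs of 606 and 179 bp toward the 5′ end, 2 further CHG DMRs of 750 and 246 bp toward the 3′ end, the overlapping CHG DMR, and a CG and a CHG DMR between teosinte and landraces of 331 and 588 bp. The landrace DMRs of this gene began more than 1 kb 5′ of the exonic DMR (gaps of 1039 and 1034 bp), and the landrace CG DMR ended at the same base, 147360048, as the neighbouring CG DMR between teosinte and modern maize. Zm00001d015054 stood alone, with no other DMR of any context or comparison in its span or within 5 kb of it.

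Over all 10 genes, 33 further DMRs lay in the gene spans, at 9 genes (90%). Another DMR of any class lay in the span of the listed gene at 82 of the 217 other exon-listed DMRs (37.8%) and at 91 of all 227 (40.1%). Most of these DMRs are of the comparison that chose the genes or share its plants, so nothing further is read from the count. The 33 were 15 CHG DMRs at 9 genes and 4 CG DMRs at 3 genes between teosinte and modern maize, 6 CG and 6 CHG DMRs at 6 genes between teosinte and landraces, and 1 DMR each of CHG between landraces and modern maize and of CHH between teosinte and modern maize. The number in a gene also depends on how long its span is. Another CG DMR between teosinte and modern maize lay within 5 kb of 3 of the 10 exonic DMRs (30%), those of Zm00001d021269, Zm00001d030270 and Zm00001d010120, against 18 of the 217 other exon-listed DMRs (8.29%) and 144 of all 1545 (9.32%). At Zm00001d010120 this neighbour of 275 bp lay 3580 bp upstream, outside the gene span, and 2 further CHG DMRs of 688 and 714 bp lay inside the span on the 3′ side. Zm00001d046747 also had a further CHG DMR, of 509 bp, 854 bp to the 3′ side.

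**Figure D3:**
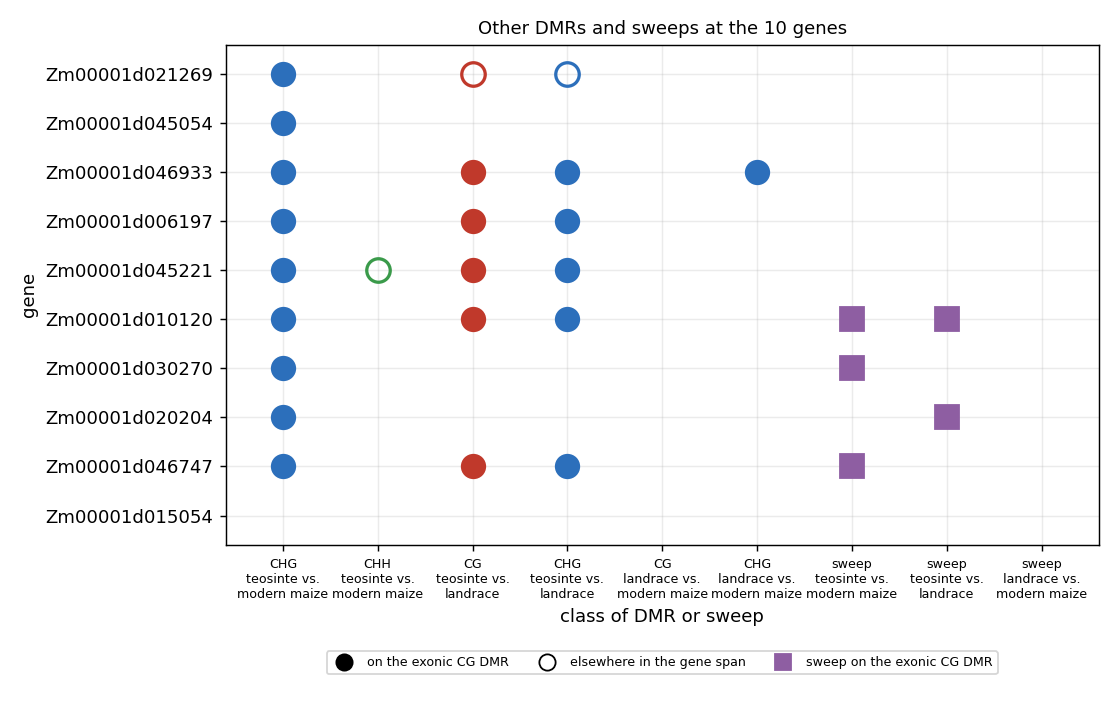
Classes of other DMRs and of selective sweeps (columns) at each of the 10 genes (rows); filled circles lie on the exonic CG DMR, open circles elsewhere in the gene span, and squares mark a sweep over the exonic DMR. CHG DMRs between teosinte and modern maize fill 9 of 10 rows, the 5 rows with a landrace CG DMR on the exonic DMR are those with a landrace CHG DMR there, and the row of Zm00001d015054 is empty.

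Selective sweeps come from the WGS data. XP-CLR is a composite likelihood score that rises with the difference in allele frequency between populations over linked SNPs, and the deposited table keeps the outlying stretches. There were 1330 sweeps between teosinte and modern maize, 1355 between teosinte and landraces and 1375 between landraces and modern maize. Scores are compared here only within 1 comparison, as ranks from the highest.

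The shares of the 10 exonic DMRs in sweeps were near those of all CG DMRs in the 2 comparisons with teosinte. The paper reports that its CG DMRs lay in sweeps more often than randomly placed regions did. The background here is thus a share among DMRs and not among the genome, and a genome-wide share was not counted. Between teosinte and modern maize 3 of the 10 lay in a sweep (30%), against 35 of the 217 other exon-listed DMRs (16.1%) and 428 of all 1545 (27.7%). Between teosinte and landraces 2 lay in a sweep (20%), against 36 (16.6%) and 372 (24.1%). Between landraces and modern maize none of the 10 did, against 32 (14.7%) and 347 (22.5%). A sweep of any comparison covered 4 of the 10 and 657 of all 1545 (42.5%). With 10 genes each single gene moves a share by 10 percentage points, so these differences from the background are not a result about the genes.

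**Figure D4:**
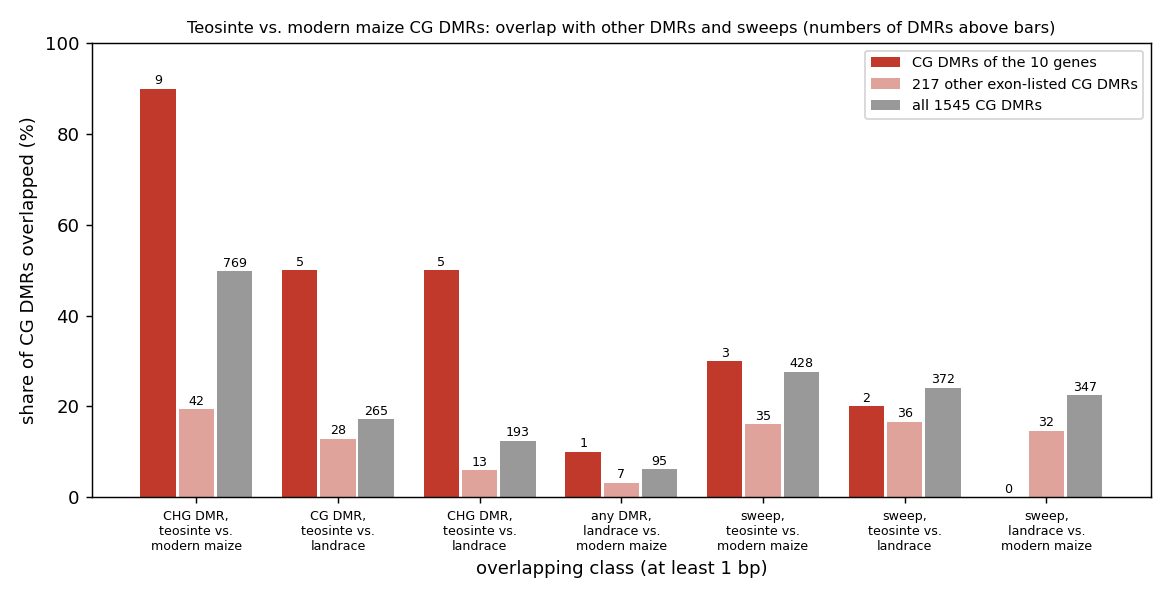
Share (%) of teosinte vs. modern maize CG DMRs that overlap each class of DMR or sweep by at least 1 bp, for the 10 genes, the 217 other exon-listed DMRs and all 1545; numbers above bars are DMRs. The bars of the 10 genes stand at 90, 50 and 50% for the CHG, landrace CG and landrace CHG classes and at 30, 20 and 0% for the sweeps.

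The gene in the sweep with the highest rank was Zm00001d010120. Its exonic DMR lay in a sweep between teosinte and modern maize on chromosome 8 from 99290001 to 100315000 (1025 kb), with a deposited XP-CLR score of 151 and rank 60 of 1330. It also lay in a sweep between teosinte and landraces from 99205001 to 101105000 (1900 kb), with a score of 114 and rank 191 of 1355. It was the only one of the 10 in sweeps of 2 comparisons, and it had the identical landrace CG DMR described above. Both sweeps are far longer than the gene, so they hold other genes too.

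The other genes in sweeps had lower ranks. Zm00001d030270 lay in a sweep between teosinte and modern maize on chromosome 1 from 118110001 to 118270000 (160 kb, score 97.8, rank 322). Zm00001d046747 lay in one on chromosome 9 from 104085001 to 104275000 (190 kb, score 87.1, rank 439). Zm00001d020204 lay in a sweep between teosinte and landraces on chromosome 7 from 98995001 to 99070000 (75 kb, score 54.2, rank 1133 of 1355), and its nearest sweep between teosinte and modern maize was 688 kb away. Zm00001d046747 had the landrace DMRs on its exonic DMR but no sweep between teosinte and landraces, whereas Zm00001d020204 had such a sweep and no landrace DMR, and Zm00001d010120 had both.

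The remaining 6 exonic DMRs were outside every sweep. That of Zm00001d045054 was 2726 bp from a sweep between landraces and modern maize (11195001 to 11375000, score 103, rank 383 of 1375), but 862 and 788 kb from the nearest sweeps of the modern maize and landrace comparisons with teosinte. That of Zm00001d021269 was 13.4 kb from a sweep between landraces and modern maize (146995001 to 147345000, score 113, rank 262) and 23.4 kb from one between teosinte and modern maize (147045001 to 147335000, score 67.4, rank 983). That of Zm00001d015054 was 60.6 kb from a sweep between teosinte and modern maize with a score of 61.9 and rank 1257 of 1330. That of Zm00001d045221 was 118 kb from a sweep between teosinte and landraces with a score of 191 and rank 39 of 1355. Zm00001d046933 and Zm00001d006197 were farther, with nearest sweeps of any comparison at 174 and 436 kb.

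The median distance to the nearest sweep between teosinte and modern maize was 374 kb for the 10 genes, 384 kb for the other exon-listed DMRs and 197 kb for all CG DMRs. Between teosinte and landraces the medians were 453, 449 and 292 kb in the same order of sets, and between landraces and modern maize 636, 304 and 280 kb. Distances among the 10 ran from 0 to 1328 kb, 0 to 2223 kb and 2.73 to 2887 kb in these comparisons, so the sets overlapped over most of their range.

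**Figure D5:**
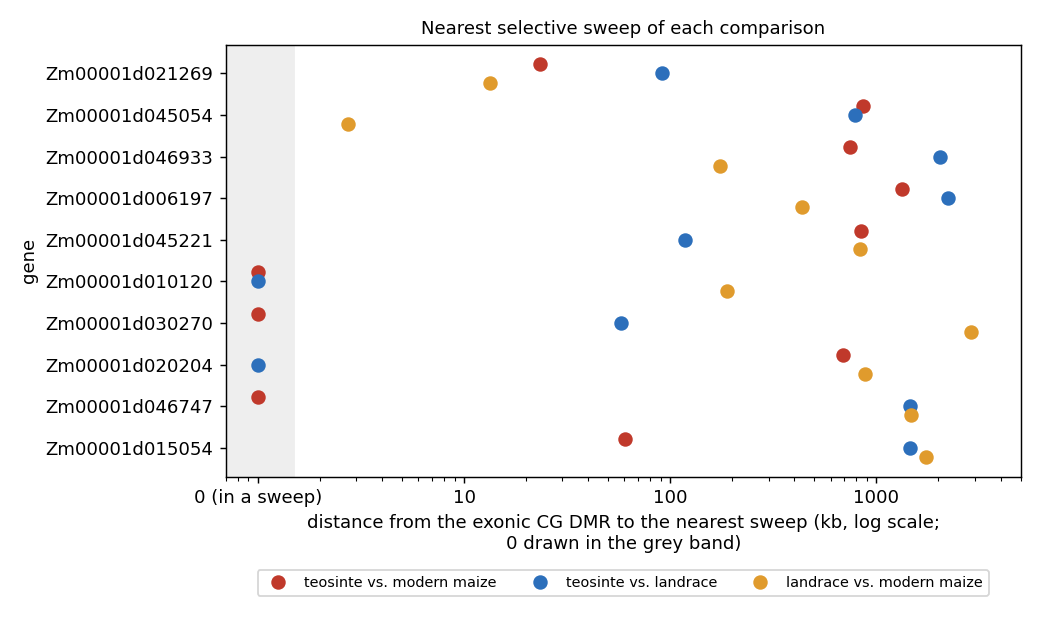
Distance (kb, log scale) from the exonic CG DMR of each gene to the nearest sweep of each comparison; points in the grey band lie inside a sweep and have a distance of 0. Zm00001d010120 has 2 points in the band, Zm00001d030270, Zm00001d020204 and Zm00001d046747 have 1 each, and the other 6 genes lie between 2.73 and 2223 kb.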

How the data were processed

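The authors mapped WGBS reads with Bowtie2 to B73 AGPv4 pseudo-references carrying the SNPs of each plant, extracted cytosines with Bismark, dropped sites of low coverage and called DMRs between populations with metilene, where a threshold on the mean difference in CG and in CHG leaves out smaller shifts. SNPs were called with BWA, Picard and GATK 4, per the submitters' processing notes. The deposited sweep table holds the authors' XP-CLR score per window, each window holding equally many SNPs and nearby high windows being joined. The deposited DMR table names context and comparison beside the coordinates. Library depth was not analysed here. The paper reports slightly higher methylation in landraces and says that lower sequencing depth may be the reason. Whether depth bears on the presence or absence of landrace DMRs was not tested.

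The 10 genes, and all lists and counts, were chosen with earlier results of these data known, and all 10 are named. The study's exon list was used only to pair genes with DMRs, for gene spans and strand, and to rank the losses. The sheet is titled as another of the study's lists and was taken as the exon list from its contents, and the choice of genes and every exon-listed count rest on that reading. Sets were joined by position in Python 3.11.15 (numpy 2.4.6, pandas 2.3.3, matplotlib 3.10.9) with an overlap of at least 1 bp. Functions for covered bases and distances were tested on simulated regions. DMR starts were taken to count from 0, which the sources used here do not give, and sweep starts count from 1. No per-plant value was used, so no test was run. Alternatives were other overlap minimums, windows of 1 and 50 kb, higher sweep scores, 5 kb beyond the gene span and DMR starts counted from 1. No identifier matched the gene table at hand, which is of another assembly, so neither names nor sequences are printed.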

Additional observations from a re-analysis of the deposited data

How the results depend on the processing

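Of 30 values recomputed under alternatives, 25 stayed within 1.5 times of the value reported and 20 were equal to it. The other 5 moved further. With a window of 1 kb, CHH DMRs between teosinte and modern maize were counted at 2 genes (reported 0). With at least 90% of the exonic DMR covered, a minimum chosen after seeing the data, landrace CG DMRs were counted at 3 genes (reported 5). With at least 50% covered, DMRs between landraces and modern maize were counted at 0 (reported 1). With sweeps at or above the median score, sweeps between teosinte and landraces were counted at 1 (reported 2), and within 50 kb, sweeps between landraces and modern maize at 2 (reported 0). Each of these follows from the minimum or window itself. Several other alternatives, such as DMR starts counted from 1, change a region by a single base and could hardly move a value. A stricter minimum also cannot raise a count. The 25 values that stayed close are therefore a weak check. No paired analysis was possible because the tables hold population comparisons with no value per plant, and for the same reason no plant was left out in turn. The main limits are 10 genes chosen by their loss, no level and no error for any plant, and no direction for DMRs other than the exonic ones. The sets of CG DMRs set beside the 10 were also not split into losses and gains.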
